A study of Mus musculus with 6 samples.

Results

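ILC2 lineage transcription factors are the DNA-binding proteins and cofactors that specify group 2 innate lymphoid cells (ILC2s) and hold them in that identity. 10 of them were followed here, *Gata3*, *Rora*, *Bcl11b*, *Gfi1*, *Ets1*, *Tcf7*, *Id2*, *Zbtb16*, *Maf* and *Tox*, which were taken by name and are 10 of the 16381 genes listed with a value. The study asked what melatonin does to activated ILC2s (aILC2s), lung ILC2s sorted from wild type (WT) BALB/c mice, stated to be female and 6 to 8 weeks old, that had received 0.5 µg of IL-33 into the nose on each of 3 days. The sort took live CD45+ cells without lineage markers that carried ST2 and CD127. All cells of both groups therefore came from IL-33-challenged lungs. They were then kept ex vivo for 24 h with 250 µM melatonin (3 libraries) or with its solvent DMSO (vehicle, 3 libraries), and RNA was sequenced in bulk.

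In lymphoid progenitors, Id2 holds E proteins away from DNA and so permits innate lymphoid fate, while Tox, Tcf7, Ets1 and transiently Zbtb16 act on the way to the ILC precursor. Gata3 and Rora are then needed for the ILC2 branch, where Bcl11b and Gfi1 keep the genes of other lymphocyte lineages low. In the mature lung ILC2, Gata3 binds at the genes of the type 2 cytokines IL-5 and IL-13 and of the IL-33 receptor chain ST2.

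Values are normalized counts, which are estimated reads per gene divided by a size factor of the library. A log2 fold change compares melatonin with vehicle on the log2(normalized count + 1) scale, is given with its standard error (SE), and was called when the limma p, adjusted by the Benjamini-Hochberg method over 14419 genes, was under 0.05. The 6 libraries held between 17056267 and 20511700 estimated counts, and their top 10 genes held 4.58% to 5.60% of the total. The sources do not say whether replicates came from separate mice or cultures, so p-values measure the spread between these libraries, which may be technical. Library numbers in the labels run on within each group, so a batch that followed them and the treatment cannot be told apart.

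Of the libraries, 4 went against the stated sex and 1 stood apart from its group. *Xist*, the transcript of the inactive X chromosome, reached 579 normalized counts in melatonin replicate 2 and 1091 in replicate 3, where the Y-linked *Eif2s3y* and *Ddx3y* were at 0. In melatonin replicate 1 and the vehicle libraries, *Eif2s3y* was between 946 and 1363, and *Xist* was no higher than 13.6. Chi-square per degree of freedom within groups was highest for melatonin replicate 1 against replicates 3 and 2, at 37.2 and 28.9, and between 6.34 and 14.2 for the other pairs within a group. Member values are therefore also given without melatonin replicate 1, and without melatonin replicates 2 and 3. The last leaves 1 melatonin library, whose spread is then assumed to be that of the vehicle libraries.

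All 7 ILC2 markers had a value, and their sum was 91287 to 97755 in vehicle and 65146 to 75557 in melatonin. Of these 7, *Il1rl1*, which encodes ST2, was called higher and *Thy1*, *Il2ra*, *Klrg1* and *Il7r* were called lower. T cell markers had a value for 6 of 10 genes, with *Cd4*, *Cd8a*, *Cd8b1* and *Cd5* without one, all 6 were called lower, and their sum was 6049 to 6577 in vehicle and 2127 to 3175 in melatonin. For NK cells and ILC1, 5 of 6 markers had a value, 3 were called lower, and their sum went from 263 to 343 in vehicle to 24.1 to 36.1 in melatonin, where *Ncr1*, *Klrb1c* and *Eomes* were at or under 3 counts. All 4 ILC3 markers had a value, 2 were called lower, and their sum was 332 to 380 in vehicle and 50.3 to 60.3 in melatonin. Myeloid markers numbered 8 with a value, 6 were called lower, and the sum was 1462 to 1719 in vehicle and 364 to 847 in melatonin. The B cell genes *Ms4a1* and *Pax5* had no value, and *Cd79b* fell from 297 ± 16.9 to 142 ± 15.6 (SD, n = 3). Airway and alveolar epithelial markers had a value for 4 of 5 genes, of which *Epcam* was called higher and 3 lower, *Scgb1a1* and *Sftpa1* being at or under 3 counts with melatonin. The epithelial sum was 966, 911 and 2155 in vehicle replicates 1, 2 and 3, and 1025 to 1236 in melatonin. *Scgb1a1* was at 95.2, 21.6 and 1045 in those vehicle libraries, so vehicle replicate 3 stood apart. Of the markers called lower, *Cd3d*, *Trac*, *Ncr1*, *Tbx21*, *Il17a*, *Adgre1*, *S100a8*, *Scgb1a1*, *Sftpa1* and *Sftpc* reached the filter value of 10 in vehicle libraries only. These markers were thus tested through the group in which they were higher. The part of other cells in the values of the lineage factors was not tested. In bulk RNA, fewer cells of a type and less RNA per cell cannot be told apart.

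After 24 h of melatonin, *Rora* and *Tox* rose, *Id2* and *Ets1* fell, and the other 6 lineage factors did not pass the threshold. Among all genes tested, 24.5% were called higher and 24.7% lower, 49.2% in either direction, so the 4 of 10 members called were no higher a share than the background. The libraries of the groups did not overlap for 6 members, 3 with melatonin above vehicle (*Rora*, *Tox* and *Gfi1*) and 3 below (*Id2*, *Ets1* and *Maf*), where 60.4% of all tested genes did not overlap, 30% above and 30.3% below. The median log2 fold change of the 10 members was -0.11, beside -0.00 over all genes tested. A two-sided exact permutation test of 3 libraries against 3 cannot go below 0.1, and it gave 0.1 for each of those 6 members.

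**Figure D1:**
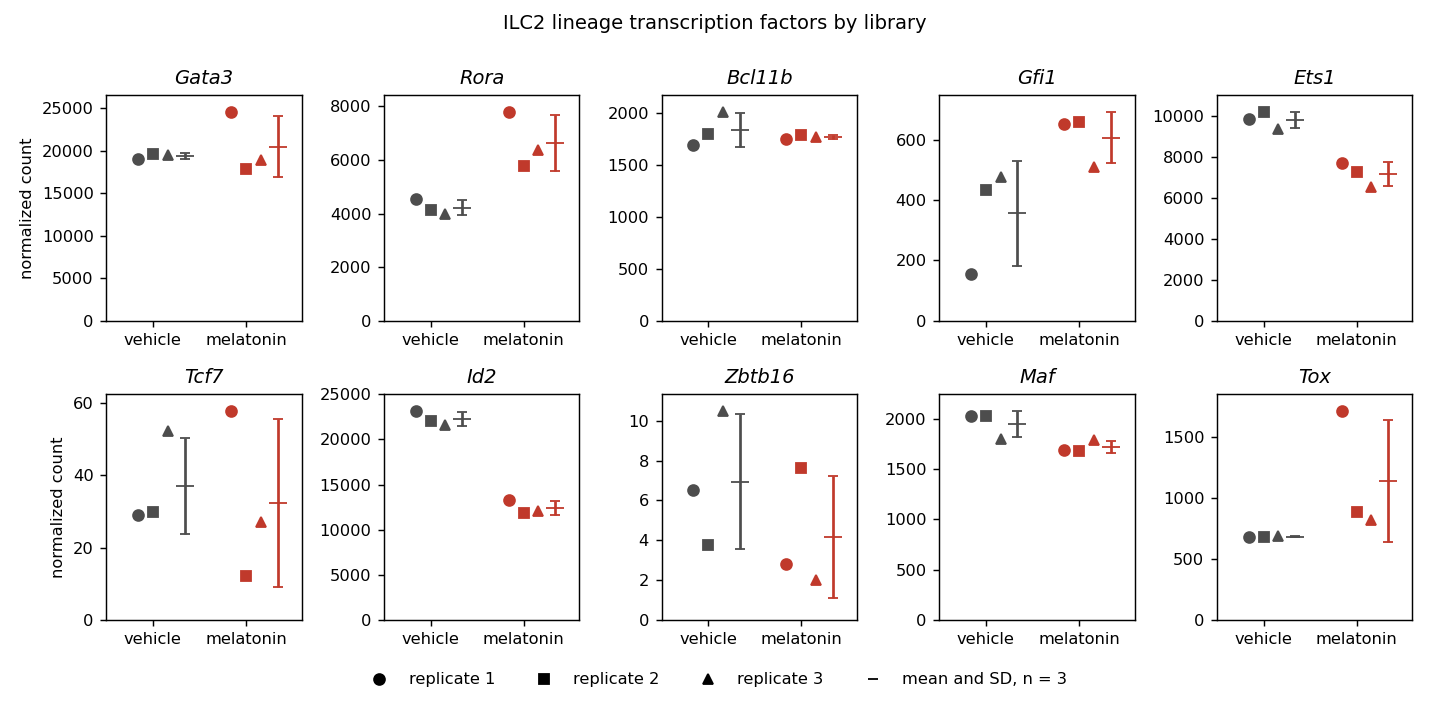
Normalized counts (vertical axes, from 0) of the 10 lineage factors in each vehicle (grey) and melatonin (red) library, with the symbol marking the replicate number and the bar the mean and SD of 3 libraries. *Id2* and *Ets1* sit lower and *Rora* higher in every melatonin library, while for *Gata3* and *Tox* melatonin replicate 1, at 24588 and 1714, lies above the other libraries.

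*Id2*, the inhibitor of DNA binding that pairs with E proteins, showed the lowest p of the members. It was at 23162, 22009 and 21627 normalized counts in vehicle replicates 1, 2 and 3, and at 13230, 11876 and 12028 in melatonin replicates 1, 2 and 3. Every melatonin library lay below every vehicle library, and the 3 melatonin values lay close together. The means were 22266 ± 799 and 12378 ± 742 (SD, n = 3), 0.556 of the vehicle level, for a log2 fold change of -0.85 (SE 0.08, 95% interval -1.03 to -0.67, limma adjusted p = 0.000105). Without melatonin replicate 1 it was -0.90, and without melatonin replicates 2 and 3 it was -0.75, and both were called. The gene lies on the minus strand of chromosome 12 of GRCm39, from 25143798 to 25147282, a compact locus whose longest transcript has 3195 bases. The opposite-strand long noncoding genes *Gm59395* and *Gm36287* share 796 and 466 exon bases with *Id2* and had no value.

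The partners of Id2 are the E proteins, basic helix-loop-helix activators encoded by *Tcf3* (E2A), *Tcf4* (E2-2) and *Tcf12* (HEB). *Tcf3* was at 2200, 2319 and 2625 in vehicle and at 1985, 1972 and 1695 in melatonin, with a log2 fold change of -0.34 (SE 0.10, limma adjusted p = 0.0202), a call that held in 3 of 6 fits that each left out a library. *Tcf12* went the other way, from 657 ± 17.2 to 833 ± 78.2 (SD, n = 3), with a log2 fold change of 0.34 (SE 0.10, limma adjusted p = 0.0193), held in 4 of 6 such fits. *Tcf4* overlapped between the groups, with values of 88.1 to 126 in vehicle and 71.0 to 127 in melatonin. The sum of the 3 E proteins per kilobase (kb) of transcript was 463, 479 and 532 in vehicle and 473, 446 and 400 in melatonin, and the groups overlapped. *Id2* per kb divided by that sum was 15.7, 14.4 and 12.7 in vehicle and 8.75, 8.33 and 9.40 in melatonin, a log2 difference of -0.69 (SE 0.10; exact two-sided permutation p = 0.1, the smallest possible). The ratio was chosen after the values were seen, and its log2 difference without melatonin replicate 1 was -0.68. Of the relatives of Id2, *Id1*, another E protein inhibitor, rose from 8.21 ± 3.03 to 26.3 ± 2.80 (log2 fold change 1.61, SE 0.38, limma adjusted p = 0.0075), a low level in both groups. *Id3* overlapped between the groups, at 362 to 466 in vehicle and 318 to 387 in melatonin (log2 fold change -0.26, limma adjusted p = 0.137), and *Id4* had no value.

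The zinc finger factor *Gata3*, which specifies type 2 lymphocytes, was at 19000, 19607 and 19489 in vehicle and at 24588, 17890 and 18927 in melatonin. Melatonin replicate 1 was the highest of the 6 libraries, and the other melatonin libraries lay below all vehicle libraries. The means were 19365 ± 321 and 20469 ± 3605 (SD, n = 3), and the log2 fold change was 0.07 (SE 0.12, 95% interval -0.20 to 0.33, limma adjusted p = 0.667). This value turned to -0.07 without melatonin replicate 1 (limma adjusted p = 0.302), and was 0.34 and called without melatonin replicates 2 and 3 (limma adjusted p = 0.00316). *Gata3* lies on the minus strand of chromosome 2, from 9861889 to 9894845. The long noncoding gene *Gata3un* shares 77 exon bases with it on the same strand and was at 8.89, 9.92 and 12.5 in vehicle and 2.80, 5.02 and 5.19 in melatonin (log2 fold change -1.12, limma adjusted p = 0.0754). The kit does not mark strand, so reads of *Gata3* and of the opposite-strand *Gm13256*, which had no value, cannot be told apart either. This limit also holds for the other members that share exon bases with an opposite-strand gene.

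The genes whose log2 values ran most like those of *Gata3* over the 6 libraries, in the 9990 genes whose mean reached 100, were *Selplg* (Pearson r = 0.997), *Jpt1* (0.995), *Trp53i11*, *Dcaf4* and *Kmt2e* (each 0.98). In all 5, as in *Gata3*, melatonin replicate 1 was the highest library, and none passed the threshold. *Selplg*, which encodes the selectin ligand PSGL-1, was at 16511 to 16844 in vehicle and at 22665, 15496 and 16188 in melatonin. These correlations describe 6 libraries that share the same size factors.

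*Rora* encodes RORα, a nuclear receptor without which ILC2s do not develop. It was at 4546, 4120 and 4000 in vehicle and at 7796, 5760 and 6362 in melatonin. Every melatonin library lay above every vehicle library, and replicate 1 was again the highest. The means were 4222 ± 287 and 6640 ± 1046 (SD, n = 3), 1.57-fold higher with melatonin, with a log2 fold change of 0.64 (SE 0.11, 95% interval 0.38 to 0.90, limma adjusted p = 0.00205). It was 0.52 without melatonin replicate 1 and 0.89 without melatonin replicates 2 and 3, and called in both. Taken per kb within each library, *Rora* stood at 0.0821, 0.0721 and 0.0704 of *Gata3* in vehicle and at 0.1088, 0.1104 and 0.1153 in melatonin. Melatonin replicate 1 did not stand apart in this ratio, whose log2 difference was 0.58 (SE 0.07; exact two-sided permutation p = 0.1) with all libraries and 0.60 without it. *Rora* spans the plus strand of chromosome 9 from 68561068 to 69295528, with 12 annotated transcripts, the longest of 11028 bases. Its relative *Rorb* was listed at 0 in all vehicle libraries and in melatonin replicates 1 and 2, and at 11.1 in melatonin replicate 3. The opposite-strand long noncoding genes *Gm15511* and *Gm31325* share 156 and 2 exon bases with *Rora* and had no value.

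Promoter sequences from RefSeq (GRCm38.p6) matched 6 of the 10 members, *Gata3*, *Rora*, *Bcl11b*, *Gfi1*, *Tcf7* and *Id2*, with a second start for *Gfi1* and *Tcf7*. Those of *Id2*, *Rora* and *Gata3* are shown because these factors fell, rose and did not pass the threshold, respectively. Each line gives the 250 bases before the annotated start, 5′ to 3′ on the gene's strand, at chr12:25096093-25096342 (minus), chr9:68653536-68653785 (plus) and chr2:9878601-9878850 (minus). Capitals mark matches to 8 motifs searched on both strands, the GATA sites AGATAA and TGATAA, the E-box CACGTG, the E-box CAGCTG, the E-box CAGGTG, the ETS core CCGGAA, the ROR half-site AGGTCA and the antioxidant response element TGACNNNGC.
Id2: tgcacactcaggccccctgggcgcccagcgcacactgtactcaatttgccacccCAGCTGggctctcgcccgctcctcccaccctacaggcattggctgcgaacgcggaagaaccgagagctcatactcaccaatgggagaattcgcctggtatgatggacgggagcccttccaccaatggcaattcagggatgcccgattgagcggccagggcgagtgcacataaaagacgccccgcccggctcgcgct
Rora: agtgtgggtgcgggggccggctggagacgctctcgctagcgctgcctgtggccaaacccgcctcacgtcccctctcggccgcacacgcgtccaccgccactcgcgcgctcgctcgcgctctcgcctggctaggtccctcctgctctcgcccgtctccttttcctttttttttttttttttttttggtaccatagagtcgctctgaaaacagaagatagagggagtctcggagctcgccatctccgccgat
Gata3: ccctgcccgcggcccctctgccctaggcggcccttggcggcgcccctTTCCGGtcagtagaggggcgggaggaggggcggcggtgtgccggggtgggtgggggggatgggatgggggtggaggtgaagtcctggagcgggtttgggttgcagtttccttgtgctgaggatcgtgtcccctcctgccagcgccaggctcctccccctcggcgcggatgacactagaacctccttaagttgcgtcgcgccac
The *Id2* window held 1 match, the E-box CAGCTG, with its first base at position -196 from the start, which reads the same on both strands. E proteins bind sequences of this kind, and 13.0% of 32851 promoter windows of the same length held this one. The *Gata3* window held the ETS core on its minus strand, printed as TTCCGG, at position -203, a motif in 12.0% of windows. In the *Rora* and *Bcl11b* windows none of the 8 motifs was found, which says only that these letters are not in those 250 bases. Of the windows not shown, the first of *Gfi1* held CAGGTG at -42 and the first of *Tcf7* held CAGCTG at -159. The second *Tcf7* window held the ETS core at -24 and the ROR half-site at -13, and the second *Gfi1* window none of the 8 motifs. *Gfi1* and *Tcf7* did not pass the threshold. The GATA sites were in 9.99% and 7.94% of all windows, CACGTG in 6.02%, CAGGTG in 17.2%, the ROR half-site in 14.0% and the antioxidant response element in 10.2%. GC content was 62.8% for *Id2*, 61.2% for *Rora* and 70.0% for *Gata3*, beside a median of 52.4% over all windows.

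*Bcl11b*, a zinc finger repressor that maintains ILC2 and T cell identity, was at 1688, 1794 and 2009 in vehicle and at 1745, 1788 and 1763 in melatonin. The groups overlapped and the melatonin libraries lay within the vehicle range. With means of 1831 ± 163 and 1766 ± 21.7 (SD, n = 3), the log2 fold change was -0.05 (SE 0.09, 95% interval -0.24 to 0.15, limma adjusted p = 0.663). Without melatonin replicate 1 it was -0.04, and without melatonin replicates 2 and 3 it was -0.07. The interval holds neither the log2 fold change of *Id2* nor that of *Rora*. *Bcl11b* lies on the minus strand of chromosome 12, from 107876656 to 107970417, and its paralogue *Bcl11a* had no value.

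*Gfi1* encodes a zinc finger repressor that recruits LSD1 and CoREST. Vehicle replicate 1 stood low at 155, with 434 and 477 in vehicle replicates 2 and 3, and the melatonin libraries were at 653, 660 and 509. The groups did not overlap, but the vehicle libraries varied with a coefficient of variation of 49.2%. The log2 fold change was 0.92 (SE 0.37, 95% interval 0.09 to 1.76, limma adjusted p = 0.0651), the highest of the 10 members, and did not pass the threshold. Without vehicle replicate 1 it was 0.40 (limma adjusted p = 0.0645), and without vehicle replicate 3 it was 1.21 and called (limma adjusted p = 0.0367). It was 0.86 without melatonin replicate 1 and 1.04 without melatonin replicates 2 and 3, called in neither. *Gfi1* lies on chromosome 5 from 107864523 to 107873902 on the minus strand, opposite *A430072P03Rik*, which shares 327 exon bases and was at 17.7, 5.62 and 13.6 in vehicle and 9.34, 6.56 and 8.04 in melatonin. Reads of this partner, where they exist, cannot be told apart from those of *Gfi1*.

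*Ets1*, an ETS factor that supports ILC2 expansion and cytokine production, was at 9837, 10160 and 9364 in vehicle and at 7666, 7249 and 6502 in melatonin. Every melatonin library lay below the lowest vehicle library. The means were 9787 ± 400 and 7139 ± 590 (SD, n = 3), 0.729 of the vehicle level, and the log2 fold change was -0.46 (SE 0.08, 95% interval -0.65 to -0.27, limma adjusted p = 0.0024). It was -0.51 without melatonin replicate 1 and -0.35 without melatonin replicates 2 and 3, called in both. *Ets1* lies on the plus strand of chromosome 9, from 32547517 to 32669116. Its close paralogue *Ets2* rose, from 719 ± 29.8 to 1238 ± 145 (log2 fold change 0.78, SE 0.10, limma adjusted p = 0.000491).

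*Tcf7* encodes TCF-1, an effector of Wnt signalling in ILC precursors and T cells. Its values were low and scattered, 28.9, 29.98 and 52.5 in vehicle and 57.9, 12.0 and 27.1 in melatonin. The libraries overlapped, and the highest and the lowest value were both in melatonin. The log2 fold change of -0.40 (SE 0.52, 95% interval -1.58 to 0.78, limma adjusted p = 0.548) rested on 11 to 62 estimated counts a library, and was -0.94 without melatonin replicate 1 and 0.68 without melatonin replicates 2 and 3. The means, 37.1 ± 13.3 and 32.4 ± 23.4 (SD, n = 3), differed by less than the spread between libraries. *Tcf7* lies on chromosome 11 from 52143107 to 52174619 (minus strand). Of its relatives, *Lef1* was at 440 ± 19.8 in vehicle and 396 ± 162 in melatonin (log2 fold change -0.25, limma adjusted p = 0.495, but 0.16 without melatonin replicate 1, which stood at 209 beside 492 and 488), and *Tcf7l2* fell from 26.5 ± 8.50 to 2.41 ± 1.75 (log2 fold change -3.08, SE 0.53, limma adjusted p = 0.00172). *Tcf7l2* passed the filter on low values through vehicle libraries only. The opposite-strand long noncoding gene *A630014C17Rik* shares 210 exon bases with *Tcf7* and had no value.

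*Zbtb16* encodes PLZF, which marks the ILC precursor and is switched off as ILC2s mature. It was at 6.53, 3.75 and 10.5 in vehicle and at 2.80, 7.65 and 2.01 in melatonin, between 2 and 10 estimated counts a library. The gene passed the filter on low values through vehicle replicate 3 only, and its groups overlapped. The log2 fold change of -0.68 (SE 0.63, 95% interval -2.10 to 0.73, limma adjusted p = 0.387) did not pass the threshold. It was -0.54 without melatonin replicate 1, -1.14 without melatonin replicate 2 and -0.375 without melatonin replicate 3. Without melatonin replicates 2 and 3 it was -0.97. *Zbtb16* lies on chromosome 9 from 48563141 to 48748664 (minus strand).

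*Tox*, an HMG-box factor needed for the ILC precursor and raised by chronic stimulation in T cells, was at 677, 683 and 686 in vehicle and at 1714, 884 and 821 in melatonin. The vehicle libraries were within a coefficient of variation of 0.707%, all melatonin libraries lay above them, and melatonin replicate 1 stood far above the rest. On the log2 scale that library was 1.01 above the mean of melatonin replicates 2 and 3, and 98.5% of the genes whose mean reached 100 had a smaller absolute difference. The means of 682 ± 4.82 and 1140 ± 498 (SD, n = 3) gave a 1.67-fold higher level and a log2 fold change of 0.66 (SE 0.24, 95% interval 0.11 to 1.20, limma adjusted p = 0.0472). Leaving out melatonin replicate 1 lowered it to 0.32 and lowered the p as well (limma adjusted p = 0.0126), while leaving out melatonin replicates 2 and 3 gave 1.33 (limma adjusted p = 0.000126). The call was lost without any 1 of the vehicle libraries (limma adjusted p between 0.0958 and 0.109). Per kb, *Tox* was at 0.0336, 0.0328 and 0.0332 of *Gata3* in vehicle and 0.0657, 0.0466 and 0.0409 in melatonin, a log2 difference of 0.59 (SE 0.20; exact two-sided permutation p = 0.1), or 0.39 without melatonin replicate 1. *Tox* lies on the minus strand of chromosome 4, from 6686353 to 6991644. Its paralogue *Tox2* was at 6159 ± 364 in vehicle and 5959 ± 1257 in melatonin, with overlapping groups (log2 fold change -0.07, limma adjusted p = 0.717). The opposite-strand long noncoding gene *Gm11802* shares 403 exon bases with *Tox* and had no value.

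*Maf* encodes c-Maf, a bZIP factor of type 2 and IL-10-producing lymphocytes. It was at 2029, 2028 and 1807 in vehicle and at 1693, 1686 and 1796 in melatonin. The groups did not overlap, though vehicle replicate 3 and melatonin replicate 3 lay side by side. The means were 1954 ± 128 and 1725 ± 61.9 (SD, n = 3), and the log2 fold change of -0.18 (SE 0.08, 95% interval -0.36 to 0.01, limma adjusted p = 0.0977) did not pass the threshold, nor did the values of -0.17 without melatonin replicate 1 and -0.205 without melatonin replicates 2 and 3. *Maf* lies on the minus strand of chromosome 8, from 116409632 to 116434579. The long noncoding genes *Gm15655* and *Gm30712* on the opposite strand had no value, and neither had its relative *Nrl*.

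**Figure D2:**
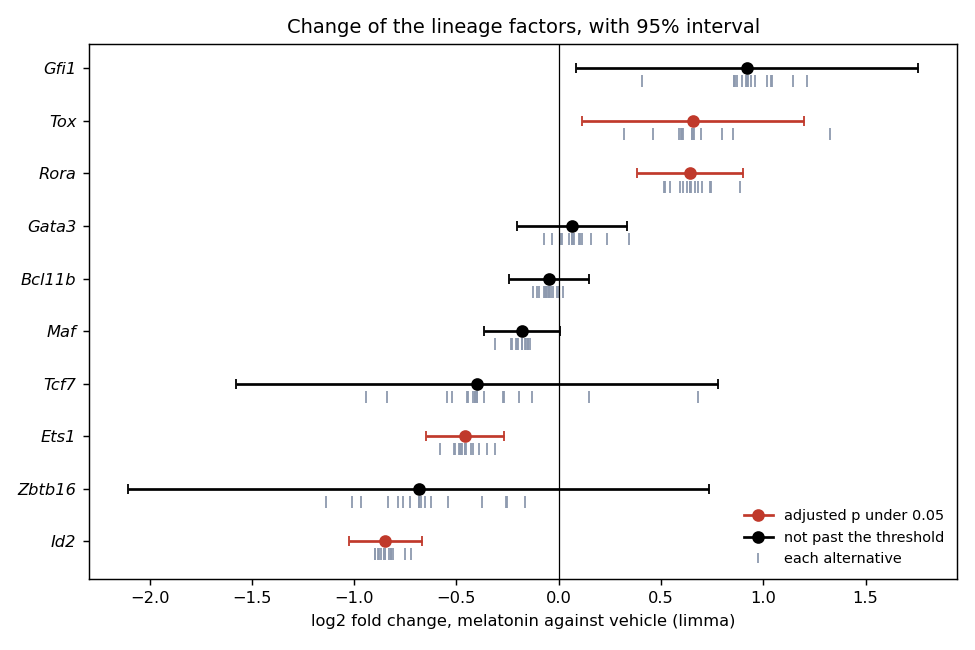
Log2 fold change of each lineage factor, melatonin against vehicle, with its 95% interval (limma, n = 3 per group), in red where the adjusted p was under 0.05, and small ticks for the value under each alternative setting. *Id2*, *Ets1* and *Rora* stay on their own side of 0 under every alternative drawn, and so do *Tox*, *Gfi1*, *Maf* and *Zbtb16*. The ticks of *Gata3*, *Bcl11b* and *Tcf7* lie on both sides.

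The order of the members by normalized counts per kb of the longest transcript changed at the top. In vehicle it was *Id2* (6969 ± 250), *Gata3* (5119 ± 85.0), *Ets1* (1924 ± 78.6), *Rora* (383 ± 26.1), *Maf* (307 ± 20.1), *Bcl11b* (211 ± 18.8), *Tox* (170 ± 1.20), *Gfi1* (124 ± 61.2), *Tcf7* (10.1 ± 3.62) and *Zbtb16* (0.869 ± 0.425). In this group the ranges of all neighbours were apart, *Tox* and *Gfi1* only by 169 against 167. In melatonin *Gata3* (5411 ± 953) stood above *Id2* (3874 ± 232), with the lowest *Gata3* library at 4729 and the highest *Id2* library at 4141. *Ets1* (1403 ± 116) and *Rora* (602 ± 94.9) followed, then *Tox* (284 ± 124) and *Maf* (271 ± 9.73), whose ranges overlapped, then *Gfi1* (212 ± 29.8) and *Bcl11b* (204 ± 2.50), whose ranges also overlapped, and last *Tcf7* and *Zbtb16*. Within libraries, *Id2* per kb was at 1.44, 1.33 and 1.31 of *Gata3* in vehicle and at 0.637, 0.786 and 0.752 in melatonin, a log2 difference of -0.91 (SE 0.10; exact two-sided permutation p = 0.1), and -0.82 without melatonin replicate 1. When the union of all exons served as the length, *Id2* and *Gata3* kept these places, and *Tox* moved to rank 8 in both groups. *Gfi1* moved to rank 7 in vehicle and, in melatonin, *Gfi1*, *Bcl11b* and *Maf* to ranks 5, 6 and 7. The level of *Ets1* was then 1153 in vehicle and 841 in melatonin, that of *Tox* 88.0 and 147.

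**Figure D3:**
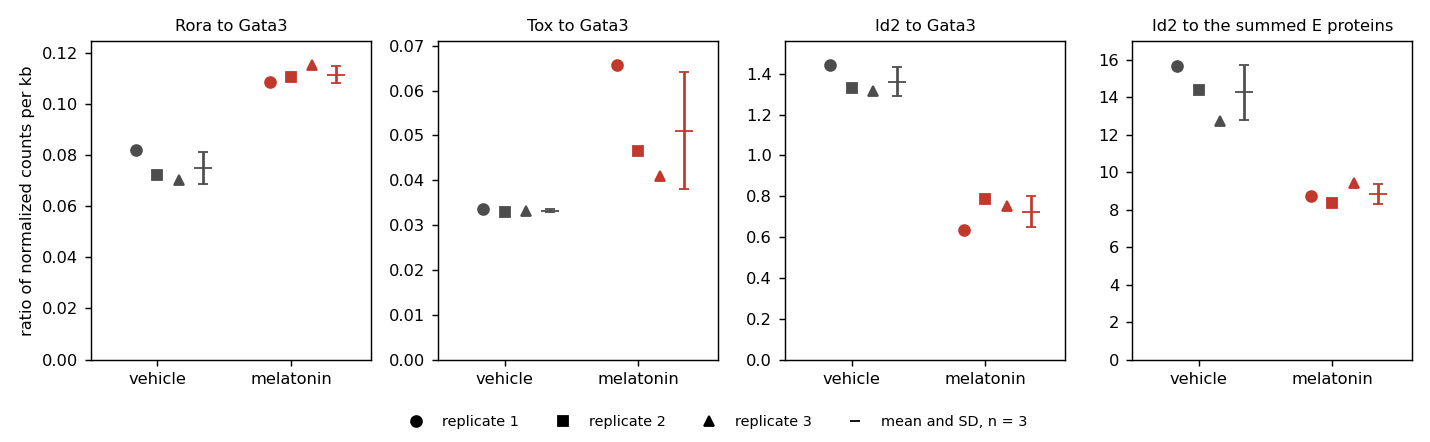
Ratios of normalized counts per kb within each library (vertical axes, from 0) for vehicle (grey) and melatonin (red), with symbols for the replicate number and bars for the mean and SD of 3 libraries. *Rora* to *Gata3* lies between 0.0704 and 0.0821 in vehicle and between 0.1088 and 0.1153 in melatonin, and *Id2* to the summed E proteins between 12.7 and 15.7 and between 8.33 and 9.40.

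Among 20 other transcription factors and Notch components described for ILC2s or their progenitors, 10 were called lower and 3 higher, with a median log2 fold change of -0.47. *Myb*, a progenitor factor, fell from 1948 ± 47.0 to 467 ± 240 (log2 fold change -2.24, SE 0.38, limma adjusted p = 0.00155), and *Irf4*, an activation-induced factor of cytokine genes, from 2916 ± 163 to 1015 ± 475 (-1.66, SE 0.34, limma adjusted p = 0.00374). For both, melatonin replicate 1 was the lowest library, at 192 for *Myb* and 468 for *Irf4*. *Bach2*, a repressor of effector genes, rose from 14.5 ± 2.18 to 75.5 ± 45.5 (2.14, SE 0.43, limma adjusted p = 0.00367), and *Hhex* from 46.3 ± 7.67 to 97.7 ± 21.6 (1.05, SE 0.24, limma adjusted p = 0.00709). The gene of this list with the highest mean normalized count, *Ikzf3*, was at 4585 ± 241 and 4185 ± 287 and did not pass the threshold. Named after their values were seen, *Pparg*, the lipid-sensing receptor of ILC2s, fell by 0.86 on the log2 scale (SE 0.08), and the Notch pair *Notch1* and *Rbpj* by 1.33 (SE 0.22) and 0.98 (SE 0.10), while *Notch2*, also of this list, overlapped between the groups and did not pass the threshold (log2 fold change -0.45, limma adjusted p = 0.0677).

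Lineage factors of ILC1, NK cells and ILC3 were few. *Tbx21* (T-bet) fell from 63.6 ± 11.9 to 6.27 ± 2.75 (log2 fold change -3.20, SE 0.37, limma adjusted p = 0.000267). *Tbx21* passed the filter on low values through vehicle libraries only. It is 1 of the NK cell and ILC1 markers summed above, of which *Prf1* (perforin) was also lower, from 110.5 ± 27.9 to 21.4 ± 6.35, and the part of such cells was not tested. *Ahr*, the aryl hydrocarbon receptor, rose from 393 ± 84.0 to 1299 ± 140 (1.74, SE 0.16, limma adjusted p = 0.000107) and *Zeb2* from 259 ± 37.7 to 436 ± 52.0 (0.75, SE 0.15, limma adjusted p = 0.00309). *Eomes* was at most 5.60 and was not tested, and *Zfp683* had no value. Of the 4 genes of this list that were tested, 2 were called higher and 1 lower.

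Closest paralogues of the members had a value for 14 of 19 genes and 13 were tested, with 2 called higher (*Id1* and *Ets2*) and 2 lower (*Tcf7l2* and *Gata1*), and a median log2 fold change of -0.04 (-0.45 without melatonin replicates 2 and 3). *Gata1* was at 11.6 ± 4.80 in vehicle and 2.23 ± 2.34 in melatonin, a call that held in 1 of 6 fits that left out a library. *Tcf7l2* and *Gata1* reached the filter value of 10 in vehicle libraries only, so they were tested through the group in which they were higher. The paralogues called lower numbered 0 with a mean of at least 100, and between 1 and 3 when 1 library was left out. Reads that match a member and a paralogue alike could be divided between them by the authors' estimation.

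Cofactors that the members are known to bind numbered 24, of which 6 were called higher and 8 lower, with a median log2 fold change of 0.14 (0.088 without vehicle replicate 3, 0.069 without melatonin replicate 2 and 0.061 without melatonin replicates 2 and 3). *Tle4*, a Groucho corepressor bound by TCF-1, rose from 84.5 ± 24.2 to 286 ± 103 (log2 fold change 1.70, SE 0.31, limma adjusted p = 0.00224). *Zfpm1*, which encodes the GATA partner FOG-1, rose from 44.1 ± 26.0 to 123 ± 41.8 (1.58, SE 0.45, limma adjusted p = 0.0181). *Chd4*, the NuRD remodeller that Gata3 and Bcl11b bind, fell from 2083 ± 241 to 1125 ± 254 (-0.91, SE 0.15, limma adjusted p = 0.00168). *Rbbp7*, with the highest mean normalized count, was at 19070 ± 746 and 16224 ± 1396 (-0.24, SE 0.09, limma adjusted p = 0.0483), a call that held in 1 of 6 fits that left out a library. For the Gfi1 partners, named after their values were seen, *Rcor1* (CoREST) was called higher with a log2 fold change of 0.89 (SE 0.23, limma adjusted p = 0.0121) and *Kdm1a* (LSD1) with one of 0.97 (SE 0.33, limma adjusted p = 0.0355), though the libraries of *Kdm1a* overlapped, its call held in 2 of 6 such fits, and its value was 0.56 without vehicle replicate 1, the lowest library.

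Of the surface, enzyme and cytokine genes by which ILC2s are known, 19 of 20 had a value (not *Ptgdr2*), 13 were called lower and 3 higher, and the median log2 fold change was -0.75. *Il1rl1*, at which Gata3 binds, rose from 8075 ± 574 to 12802 ± 3466 (log2 fold change 0.63, SE 0.16, limma adjusted p = 0.0113), with melatonin replicate 1 at 16787, the highest library, and a log2 fold change of 0.42 without it. *Calca*, which encodes the neuropeptide CGRP, rose from 297 ± 12.6 to 2802 ± 491 (3.22, SE 0.13, limma adjusted p = 2e-06). *Thy1* fell from 389 ± 32.3 to 53.7 ± 16.7 (-2.88, SE 0.24, limma adjusted p = 6.74e-05) and *Il13* from 1876 ± 104 to 409 ± 101 (-2.22, SE 0.16, limma adjusted p = 3.1e-05). *Il5*, with the highest mean normalized count, fell from 83072 ± 3711 to 49950 ± 8873 (-0.75, SE 0.13, limma adjusted p = 0.00204).

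**Figure D4:**
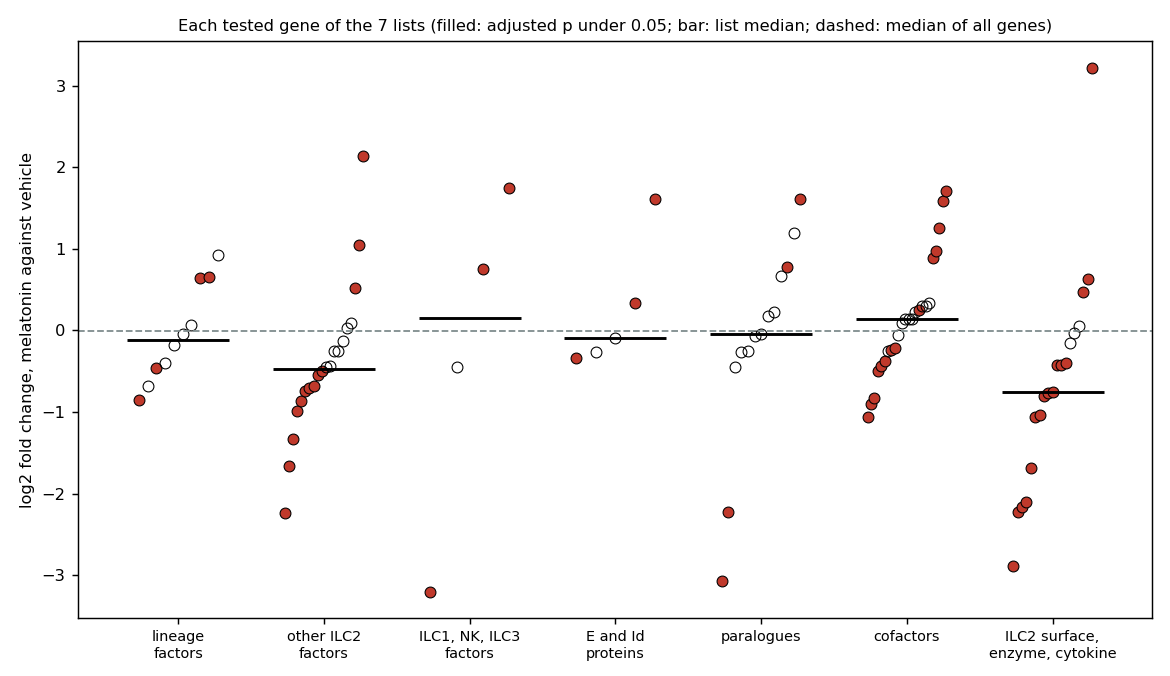
Log2 fold change (vertical axis, melatonin against vehicle) of every tested gene of the lineage factors and 6 related lists, filled where the limma adjusted p was under 0.05, with a bar at each list's median and a dashed line at the median of all genes. The lineage factors lie between -0.85 and 0.92, while the other ILC2 factors run from -2.24 to 2.14 and the ILC2 surface, enzyme and cytokine genes from -2.88 to 3.22.

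**Figure D5:**
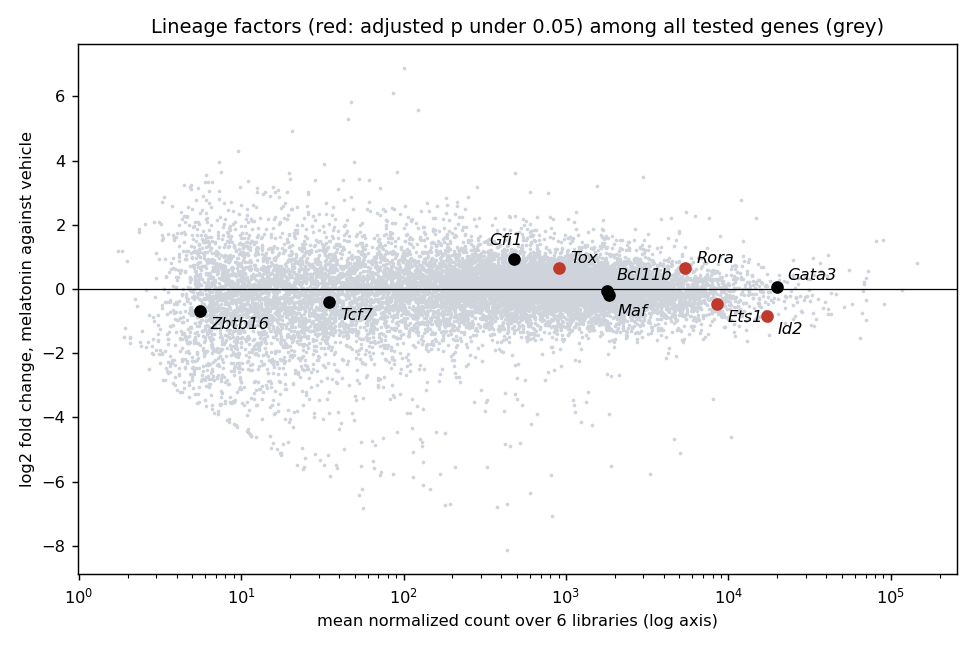
Log2 fold change (vertical axis) against the mean normalized count over 6 libraries (horizontal log axis) for all 14419 tested genes (grey) and the 10 lineage factors (red where called, black otherwise). *Gata3*, *Id2*, *Ets1* and *Rora* sit among the abundant genes to the right, *Tcf7* and *Zbtb16* among the low and widely scattered genes to the left.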

How the data were processed

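Bulk RNA sequencing covered 3 melatonin and 3 vehicle libraries of sorted mouse lung aILC2s, grouped by the labels. Within Partek Flow, the authors quality-trimmed the reads, mapped them to mm39 using STAR, and let the E/M algorithm of that software share them out over the genes of Gencode M33. The authors dropped genes low in all samples and normalized by median ratios with DESeq2. The unit of the deposited table was thus taken as signal, an estimated count over the size factor of its library, called normalized count. Between 63.4% and 66.0% of a library's positive values were whole multiples of the value of 1 read at a tolerance of 0.01, so whole reads were not recovered and no count model was used. That value of 1 read gave the estimated counts per library.

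Groups were compared with limma (version 3.58.1, R version 4.3.3), using lmFit and a trended eBayes on log2(normalized count + 1) and treatment as the single term. It covered the 14419 genes that reached 10 in 1 library or more, and Benjamini-Hochberg adjusted p-values under 0.05 were called. On simulated data for this comparison with 13840 genes it recovered 199 of 200 changed genes and called 7 of 13640 unchanged ones. The coefficient of variation there was 4.53% for vehicle and 9.65% for melatonin. In the real libraries 49.2% of genes were called, and *Tox* had a coefficient of variation of 43.7% in melatonin. Recovery and false calls under those conditions were not tested. Positions and transcript lengths came from release M39 of the Gencode annotation on GRCm39, which named 16334 of the 16381 genes, and promoters from RefSeq on GRCm38.p6. The members and lists were chosen with earlier results of these data known. Named beside the members were genes overlapping their exons, the 5 genes most like *Gata3*, and in each list the largest called rises and falls (up to 4), the most abundant gene, or all tested genes where these were 6 or fewer, and markers of other cell types. The alternatives were other pseudocounts (0.1 and 10), filters, scalings and limma settings, and voom on the normalized counts with a common library size. Further ones were each library left out, the replicate number as a block, and melatonin replicates 2 and 3 left out. The rest were length, GC and sex chromosome corrections, and stricter thresholds. Single values of some genes of these lists are not reported here.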

Additional observations from a re-analysis of the deposited data

How the results depend on the processing

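*Id2*, *Ets1* and *Rora* kept their direction and their call in all 21 refits, from -0.90 to -0.72, from -0.58 to -0.31 and from 0.51 to 0.89 on the log2 scale. *Tox* stayed positive, from 0.32 to 1.33, but lost its call in 10 of them (limma adjusted p between 0.0515 and 0.12). Members called higher numbered 1 with a pseudocount of 0.1, upper quartile scaling, quantile normalization, no trend, the length correction or an adjusted p under 0.01, between 1 and 2 when 1 library was left out, and 0 with a log2 fold change of at least 1, where members called lower also numbered 0. Over all genes, 2188 were higher and 2267 lower at an adjusted p under 0.01, and 866 and 1392 with a log2 fold change of at least 1. *Gfi1* was called with voom, with the GC correction and without vehicle replicate 3 (limma adjusted p 0.0468, 0.0442 and 0.0367), and *Maf* with upper quartile scaling and the length correction (limma adjusted p 0.0446 and 0.0141). The sign turned for *Gata3* with sample weights (-0.035) and without melatonin replicate 1, with values of -0.074 to 0.16 when 1 library was left out. It turned for *Bcl11b* with the GC correction (0.0026) and without vehicle replicate 3 (-0.10 to 0.021 over the libraries left out), and for *Tcf7* without melatonin replicate 2 (-0.94 to 0.15) or replicates 2 and 3 (0.68). Medians of lists turned sign for ILC1, NK cell and ILC3 factors with no filter (-0.45), for E and Id proteins without vehicle replicate 1 or melatonin replicate 2 (-0.31 to 0.11) and without melatonin replicates 2 and 3 (0.32), and for paralogues with no filter (0.014), quantile normalization (0.067), sample weights (0.062), the GC correction (0.055), chromosomes X and Y left out (0.066) and without melatonin replicate 1 or 2 (-0.22 to 0.17). The median of the cofactors was 0.065 with the GC correction and 0.088 with upper quartile scaling, and 3 of them were called higher with no trend. The cause of these changes was not tested. The median over all genes moved between -0.05 and 0.05.

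Same-numbered libraries did not deviate together (correlations of -0.11, 0.14 and -0.19), and vehicle replicate 1 correlated best with melatonin replicate 3 (0.31). Such correlations over 3 libraries in each group cannot decide whether the numbers pair the libraries. With the replicate number as a block, 3160 genes were higher and 3278 lower, and 2 members were called in each direction. *Zbtb16* and *Tcf7* had the fewest estimated counts of the members and the widest intervals.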
